A study of Mus musculus with 6 samples.

Results

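The 7 genes described here are tendon regulators and products of the tendon lineage and of the tissues around tendon: the transcription factors Mkx and Scx, the membrane protein Tnmd, the lubricating proteoglycan Prg4, the matrix proteins Cilp and Cilp2, and the tenascin Tnxb. They were taken by name, as the genes whose symbol is the only one annotated to a probe set, and all 7 were among the 18193 genes so measured. They were put together after Mkx and Tnmd had been seen to be lower in Delta9, so the Delta9 against WT values of the 7 are given as a description with no test. Each gene is represented by its probe set of highest mean over the 6 arrays.

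RNA came from primary mouse fibroblasts in culture, with 3 samples of Delta9 lines, named for their allele of Lmna, the gene of lamins A and C, and 3 samples of wild-type (WT) lines. All 6 were of the mixed strain C57bl6X129S3/J, came from sibling animals, were used at passage 3 and were held for 72 hours in the absence of serum, so the WT samples carry the same serum withdrawal. The sources used here do not say whether the Delta9 animals had 1 or more copies of the allele, how many animals gave the lines, or from which body site the cells came, so the spread between samples may in part be technical. The labels speak of adult cells and the design text of post-natal ones.

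Tendon fibroblasts arise from progenitors that switch on Scx, a basic helix-loop-helix factor, and mature under Mkx, a homeobox factor related to the Iroquois genes. Both factors are known to promote tendon matrix genes, and Tnmd is the standard marker of the mature tendon cell. Prg4, also called lubricin, coats the gliding surfaces of tendon sheath and joint, while Cilp and Cilp2 are related proteins of cartilage and tendon matrix and Tnxb is a tenascin of loose connective tissue and tendon sheath that binds collagen.

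Scx and related factors bind the E-box, the 6 letters CANNTG, which read alike on both strands and were searched for with overlaps allowed. RefSeq windows of assembly GRCm38.p6 were examined for 4 of the 7 genes (Tnmd, Cilp, Cilp2 and Tnxb). Windows of the remaining genes were not examined. The 250 bases before the annotated start are shown for Tnmd, whose difference was among the larger ones. The same span is shown for the relatives Cilp and Cilp2, whose differences were unlike in size. Capitals mark E-boxes, each sequence runs 5′ to 3′ on the gene's own strand, and the positions are chrX:133850758-133851007 on the plus strand for Tnmd, chr9:65264930-65265179 on the plus strand for Cilp and chr8:69887393-69887642 on the minus strand for Cilp2.
Tnmd: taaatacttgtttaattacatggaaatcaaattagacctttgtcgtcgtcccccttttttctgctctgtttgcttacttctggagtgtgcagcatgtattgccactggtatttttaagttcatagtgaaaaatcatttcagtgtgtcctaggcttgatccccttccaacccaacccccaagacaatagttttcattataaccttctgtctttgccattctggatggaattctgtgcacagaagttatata
Cilp: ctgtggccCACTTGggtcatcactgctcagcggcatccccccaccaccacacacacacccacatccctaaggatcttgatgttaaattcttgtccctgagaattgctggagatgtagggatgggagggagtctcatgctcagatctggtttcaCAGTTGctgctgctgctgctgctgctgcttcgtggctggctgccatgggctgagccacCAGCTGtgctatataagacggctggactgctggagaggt
Cilp2: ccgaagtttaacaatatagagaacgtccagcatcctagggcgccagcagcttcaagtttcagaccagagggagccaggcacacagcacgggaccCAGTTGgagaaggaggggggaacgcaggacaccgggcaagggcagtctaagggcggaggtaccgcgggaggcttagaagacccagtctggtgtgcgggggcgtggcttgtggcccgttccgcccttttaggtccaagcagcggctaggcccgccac
The Tnmd window held 0 E-boxes, the Cilp window 3, the Cilp2 window 1 and the Tnxb window, which is not shown, 1. Of the 32851 windows of that length that were counted, 66.2% held at least 1 E-box and 12.2% at least 3. These matches describe letters in a short window and were not tested against binding.

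The arrays stood on a near-common scale, with medians of 3.36 to 3.40 log2 in Delta9 and 3.38 to 3.43 log2 in WT, and their number limits the precision. The table holds no detection calls. All 14 fibroblast markers examined lay above the median level of the measured genes, and Lmna read 7.07, 6.95 and 6.11 log2 in the Delta9 samples, against 8.35, 8.89 and 8.78 log2 in the WT samples; its probe set was not placed relative to the change in the allele. Added poly-A control transcripts averaged 5.20 log2 on Delta9 replicate 3 and 4.85 log2 on WT replicate 1, against 5.64 to 6.10 log2 on the other 4 arrays. The 3′ minus 5′ signal of beta-actin, a sign of RNA quality, was 0.68, 0.51 and 0.84 log2 in the Delta9 samples, against 0.86, 0.82 and 1.41 log2 in the WT samples. That of Gapdh was 0.25, 0.23 and 0.57 log2 in Delta9, against 0.57, 0.49 and 0.51 log2 in WT. The beta-actin value was lower in 2 of the 3 Delta9 samples than in any WT sample, and its part in the differences that follow was not tested. Most macrophage marker genes were bright, and their values are given below beside those of the tendon genes.

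Of the transcription factors, Mkx, also called mohawk, had the larger difference. It read 3.54, 4.56 and 3.97 log2 in the Delta9 samples, against 6.70, 6.69 and 6.97 log2 in the WT samples. The groups were far apart, with the WT samples close to one another and the Delta9 samples more spread. Delta9 replicate 1 was near its array median of 3.36 log2, and the other Delta9 samples lay further above theirs. Part of the Delta9 signal may be background, so the fold may be understated. As measured, the level was 6.81-fold lower in Delta9, a difference of -2.77 log2 (moderated standard error, SE, of limma 0.26, n = 3 each), which lies at the 0.0385th percentile of the differences of all 18193 genes. In bulk RNA, fewer Mkx-expressing cells and less Mkx RNA per cell cannot be told apart, here or for the genes that follow.

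Scx, the early tendon factor, was dim, with a mean level at the 38.5th percentile of the measured genes. It read 3.26, 3.72 and 3.06 log2 in the Delta9 samples, against 4.01, 4.11 and 4.20 log2 in the WT samples. All Delta9 values lay below all WT values, but Delta9 replicate 2 came within 0.3 log2 of the lowest WT sample. The difference was -0.76 log2 (SE 0.18, n = 3 each), or 1.70-fold lower. Its other probe set, of the _x_at type, was dimmer still, at the 25.3rd percentile of all probe sets, and differed by -0.38 log2 (SE 0.11). Scx lies within the gene Bop1 in the annotation, a gene for ribosome assembly, and Bop1 differed by -0.02 log2 (SE 0.31).

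Tnmd, tenomodulin, was among the brightest genes of these cultures, with a mean level at the 97.0th percentile. It read 8.32, 8.65 and 9.58 log2 in the Delta9 samples, against 11.08, 10.83 and 10.63 log2 in the WT samples. The groups did not overlap, and Tnmd remained a bright signal in Delta9. It averaged 8.85 ± 0.66 log2 in Delta9 and 10.85 ± 0.22 log2 in WT (SD, n = 3 each), a 3.99-fold lower level (difference -2.00, SE 0.31). Delta9 replicate 3, the sample nearest to WT for Tnmd, was the one farthest from WT for Prg4 and Scx, so the Delta9 samples did not keep 1 order across these genes.

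Prg4 had the largest difference of the 7. It read 5.09, 5.68 and 4.08 log2 in the Delta9 samples, against 7.79, 8.18 and 8.61 log2 in the WT samples. More than 2 log2 units separated the nearest samples of the groups. The level was 9.47-fold lower in Delta9 (difference -3.24, SE 0.41, n = 3 each). The annotation places Prg4 so that it overlaps the nuclear pore gene Tpr, which was not analysed here.

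Of the related genes Cilp and Cilp2, Cilp had the larger difference; the gap between the 2 differences was not tested. Cilp, a bright gene at the 96.2nd percentile, read 8.99, 9.62 and 8.94 log2 in the Delta9 samples, against 9.50, 9.97 and 10.35 log2 in the WT samples. Delta9 replicate 2 lay above WT replicate 1, so the groups overlapped; the difference was -0.76 log2 (SE 0.27). Cilp2 was dim, at the 38.9th percentile, with 3.77, 3.83 and 3.56 log2 in the Delta9 samples, against 3.62, 3.79 and 3.93 log2 in the WT samples. Its groups were interleaved and its difference of -0.06 log2 (SE 0.13) lay within the spread between samples.

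Tnxb was also dim, at the 40.2nd percentile. It read 3.06, 3.77 and 4.66 log2 in the Delta9 samples, against 4.38, 3.45 and 3.79 log2 in the WT samples. The lowest and the highest value were both Delta9 samples, and the difference of -0.04 log2 (SE 0.42) was small beside its error. Its sign turned when Delta9 replicate 1 (0.34) or WT replicate 1 (0.21) was left out, so no direction can be given. The neighbours Atf6b and Cyp21a1 differed by -0.20 log2 (SE 0.17) and 0.14 log2 (SE 0.14).

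**Figure D1:**
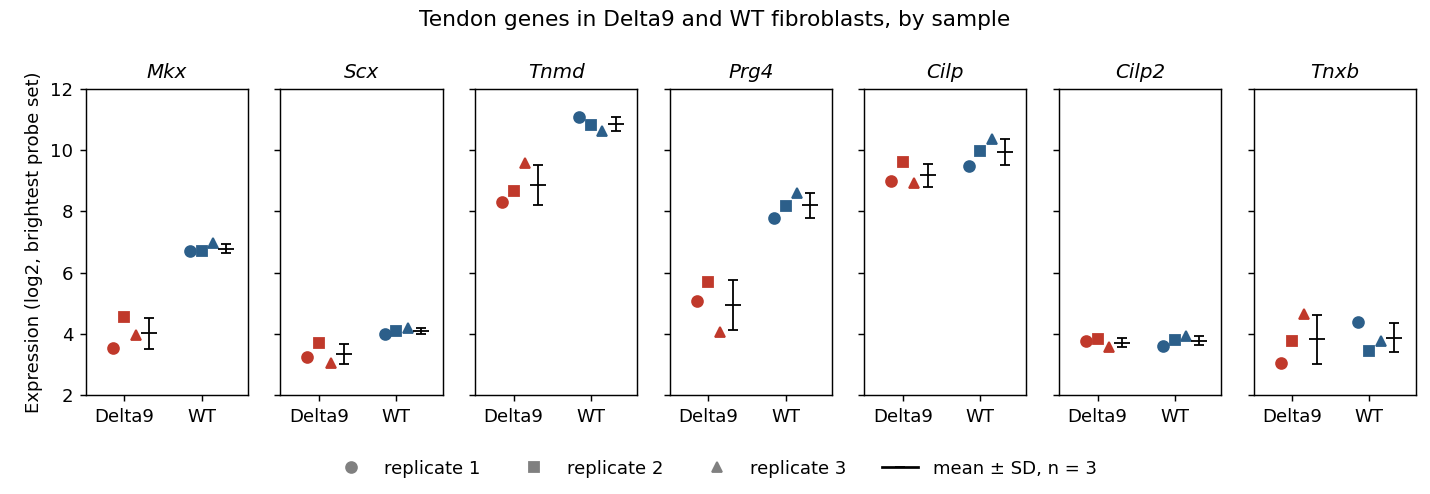
Expression of the 7 genes (log2, y axis) in the 3 Delta9 and 3 WT samples (x axis), 1 panel per gene, with bars for the mean ± SD (n = 3). Mkx, Scx, Tnmd and Prg4 have all Delta9 samples below all WT samples, whereas Cilp, Cilp2 and Tnxb overlap.

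Taken as a set, the 7 genes had a median difference of -0.76 log2, beside -0.01 log2 over all genes. All 7 had a value below 0, as did 53.2% of all genes, though those of Cilp2 and Tnxb were within their error. The groups did not overlap for 4 of the 7, each lower in Delta9, which 9.99% of all genes also showed. Because the genes were chosen on this contrast, nothing is read from these shares.

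The differences were followed through single samples and array splits. Mkx ran from -3.04 to -2.53 log2 with 1 sample left out, Prg4 from -3.61 to -2.81 log2, Tnmd from -2.36 to -1.73 log2 and Scx from -0.95 to -0.62 log2. Between the arrays of lower poly-A signal, Delta9 replicate 3 minus WT replicate 1, Mkx differed by -2.74 log2, Tnmd by -1.50 log2 and Prg4 by -3.71 log2; within the other 4 arrays the differences were -2.78, -2.24 and -3.01 log2.

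**Figure D2:**
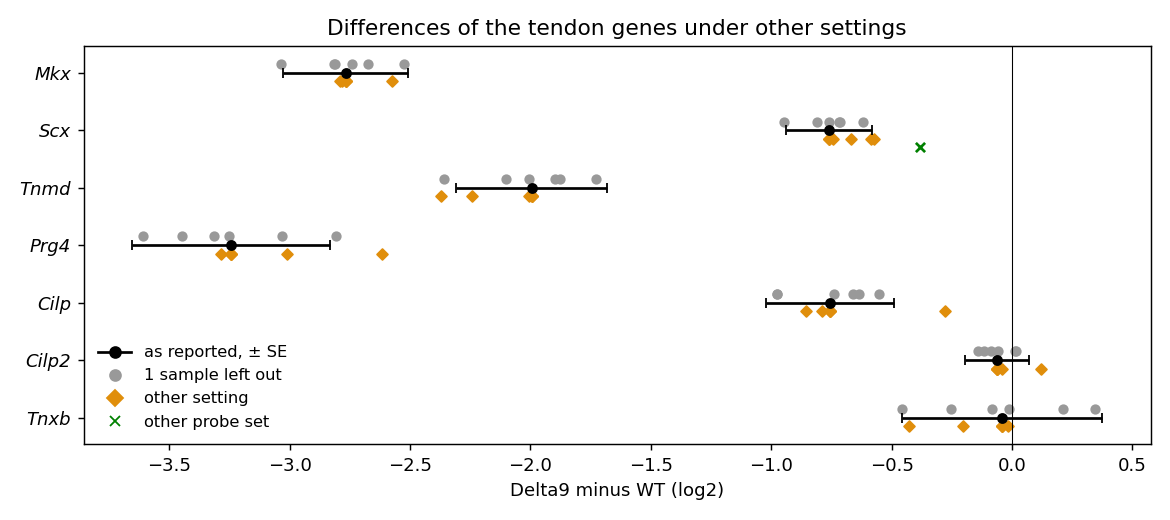
Delta9 minus WT difference (log2, x axis) of each of the 7 genes (y axis) as reported with its SE (black), with 1 sample left out (grey), under the other settings (orange) and on the other probe set of Scx (green). Mkx, Tnmd and Prg4 stay below -1.7 log2 throughout, and Cilp2 and Tnxb lie on both sides of 0.

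Macrophage markers moved with this contrast. All 20 of the list had higher values in Delta9, with a median difference of 1.09 log2; none was past the adjusted threshold in limma (0 of 20, where 0.0055% of all genes passed as higher), and 6 were higher at an unadjusted p under 0.05, beside 4.54% of all genes. Their mean level was 9.48, 9.32 and 9.96 log2 in the Delta9 samples, against 9.39, 8.74 and 7.31 log2 in the WT samples. Of the 20, 18 lay above the median level of all genes, and the dimmest, Cd163, averaged 2.98 log2 in Delta9 and 2.33 log2 in WT. WT replicate 1 had a macrophage level inside the Delta9 range, and it read 6.70 log2 for Mkx, 11.08 log2 for Tnmd, 7.79 log2 for Prg4 and 9.50 log2 for Cilp. Of these, the value of Cilp lay below that of Delta9 replicate 2. With the macrophage mean as a covariate the difference of Cilp was -0.28 log2 (SE 0.23), against -2.58 log2 (SE 0.34) for Mkx, -2.37 log2 (SE 0.37) for Tnmd and -2.62 log2 (SE 0.43) for Prg4. The part of the macrophage signal in these differences was not tested.

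**Figure D3:**
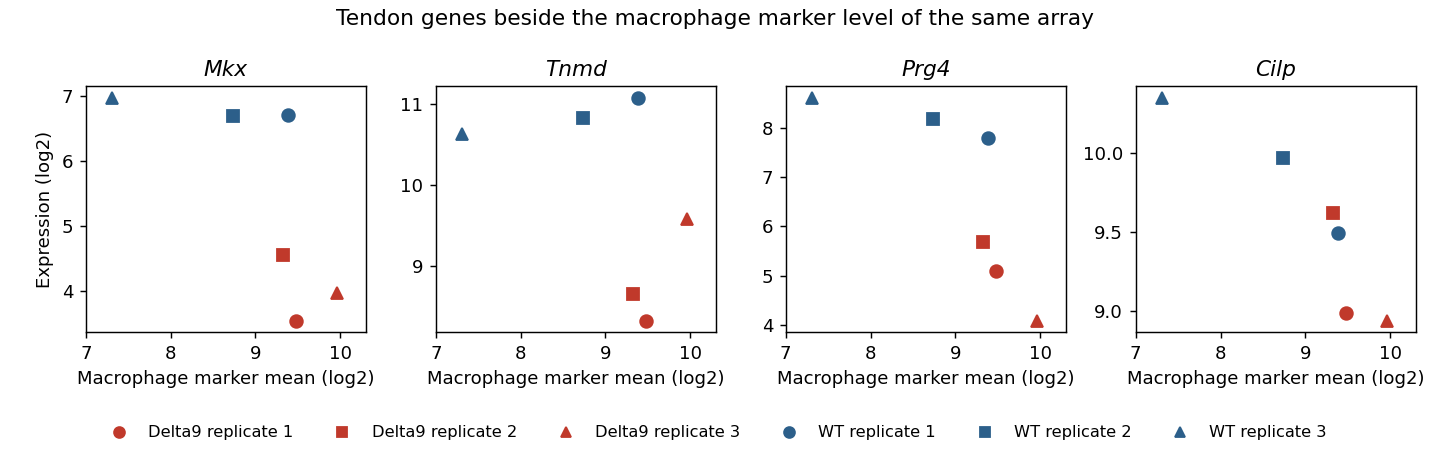
Level of Mkx, Tnmd, Prg4 and Cilp (log2, y axes, which do not start at 0) against the mean of 20 macrophage markers on the same array (log2, x axis), 1 point per sample. WT replicate 1 lies at 9.39 on the x axis, inside the Delta9 range of 9.32 to 9.96, and the part of the macrophage signal in the gene levels was not tested.

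Markers of other cell types had smaller median differences. Fibroblast markers averaged 10.94, 10.82 and 10.87 log2 in the Delta9 samples, against 11.04, 11.22 and 11.31 log2 in the WT samples. Of these markers, 13 of 14 had lower values (median -0.24), beside 53.2% of all genes. Col1a1, Col1a2, Col3a1, Col5a1, Dcn and Lum also belong to the list of tendon matrix products below, and Pdgfra to the sheath list. Those lists are therefore not independent of this one. The chondrocyte list, 2 of whose 10 genes lay above the median level, had a median of -0.13 log2, and the osteoblast list, with 0 of 5 above it, one of -0.02 log2. Medians were -0.12 log2 for skeletal muscle, -0.12 for keratinocyte, 0.13 for Schwann cell, 0.24 for endothelial and 0.40 log2 for adipocyte markers. None of these markers was past the adjusted threshold in limma. Each list had 0 to 2 genes at an unadjusted p under 0.05 by limma, beside 6.06% of all genes lower and 4.54% higher. The part of these markers in the values of the tendon genes was not tested.

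The wider tendon programme was read from 5 gene lists with 80 measured genes that are none of the 7. These lists were also chosen with earlier results of these data known, so their counts and shares are descriptions. By limma 11 of all 18193 genes (0.0605%) passed an adjusted p of 0.05; the count was 81 without Delta9 replicate 3, 5 without Delta9 replicate 2, 5 without WT replicate 1, 4 without WT replicate 3, 2 without Delta9 replicate 1 and 1 without WT replicate 2. Over all genes, 1 of the 80 passed the limma test at an adjusted p of 0.05 as lower, Fmod, and 0 as higher, where 0.055% of all genes passed as lower and 0.0055% as higher. At an unadjusted p under 0.05 there were 24 lower and 3 higher, beside 6.06% of all genes lower and 4.54% higher. The count of 1 was 12 without Delta9 replicate 3, 2 without Delta9 replicate 2 (Fmod and Thbs4) and 0 without WT replicate 2. With the poly-A split as a block it was 13, and within the 4 arrays of higher signal 7.

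Matrix products of tendon were mostly lower. Of 30, 28 had lower values in Delta9, beside 53.2% of all genes, and the median was -0.72 log2. For 15 of them all Delta9 samples lay below all WT samples, beside 9.99% of all genes. Because this list was chosen with earlier results known, nothing is read from these shares. Fmod, fibromodulin, a proteoglycan that controls collagen fibril thickness, read 10.08, 10.11 and 10.44 log2 in the Delta9 samples, against 12.38, 12.28 and 12.44 log2 in the WT samples (difference -2.16, SE 0.12, adjusted p 0.00337 by limma). Thbs4 and Comp, thrombospondins of tendon and cartilage named with their values in view, were lower by -2.42 (SE 0.32) and -4.32 log2 (SE 0.73) without passing. Leaving out 1 sample put the median between -0.83 log2 (Delta9 replicate 3 out) and -0.62 log2 (WT replicate 3 out), and it was -0.60 log2 with the macrophage covariate, where 24 of 30 were lower.

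The upstream lists had medians near that of all genes. Tendon regulators other than Mkx and Scx had lower values for 6 of 11 genes, with a median of -0.07 log2, and none passed by limma. At an unadjusted p under 0.05 by limma 4 of the 11 were lower and 0 higher, beside 6.06% and 4.54% of all genes. The lowest p-values were those of Six2, a homeobox factor of tendon and kidney, with 4.57, 4.73 and 4.55 log2 in Delta9, against 5.06, 5.37 and 5.39 log2 in WT; of Nfatc4, a calcium-regulated factor (-0.54, SE 0.15); and of Eya2, a co-activator of homeobox factors (-0.65, SE 0.20). Their groups did not overlap. In this list 4 of the 11 genes (36.4%) had all Delta9 samples below all WT samples, beside 9.99% of all genes. Egr1 and Egr2, zinc finger factors that act on tendon collagen genes, differed by -0.28 (SE 0.15) and 0.25 log2 (SE 0.17).

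Signals known to induce or restrain tendon cells were mixed, with 8 of 14 lower, a median of -0.07 log2 and none past the threshold by limma. At an unadjusted p under 0.05 by limma 3 were lower and 1 higher, beside 6.06% and 4.54% of all genes. For 3 of the 14 (21.4%) all Delta9 samples lay below all WT samples, beside 9.99% of all genes. Bmp4, a growth factor of cartilage and bone, averaged 5.94 ± 0.31 log2 in Delta9 and 7.66 ± 0.46 log2 in WT (SD, n = 3 each), and the groups did not overlap (difference -1.72, SE 0.27, limma adjusted p 0.112). Fgf18 differed by -1.03 log2 (SE 0.24). Tgfb1, a ligand of the pathway that switches on Scx, had higher values, at 8.29, 8.13 and 8.29 log2 in Delta9 and 7.67, 7.89 and 7.71 log2 in WT (difference 0.48, SE 0.13, adjusted p 0.293). Its relative Tgfb3 differed by -1.15 log2 (SE 0.51), with groups that overlapped.

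Genes of the tendon sheath and joint lining had more differences above 0 than below, most of them small beside their error. Of 14, 10 had higher and 4 lower values in Delta9, with a median of 0.09 log2 and none past the threshold by limma. Without adjustment 1 higher gene and 0 lower ones had a limma p under 0.05, beside 4.54% and 6.06% of all genes. Clic5, a chloride intracellular channel protein, was dim and differed by 0.44 log2 (SE 0.15), Sdc4, a membrane proteoglycan, by 1.40 (SE 0.86) and Has1, a hyaluronan synthase, by 0.25 log2 (SE 0.16). Tppp3, a marker of sheath progenitor cells, differed by 0.60 log2 (SE 0.52). With the macrophage covariate 6 of 14 were higher and the median was -0.01 log2, and within the 4 arrays of higher poly-A signal 7 of 14 were higher. No difference between this list and Prg4 was tested.

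Close relatives of the 7 genes had small differences, and none of the 12 passed by limma. Only 3 of the 12 lay above the median level of all genes, so a fall in the dim ones may not be visible. Without adjustment 1 had a limma p under 0.05, Irx4, as higher, beside 4.54% of all genes. The mean level of Irx4 was at the 23.4th percentile. The Iroquois factors, relatives of Mkx, differed by -0.08 (Irx1), 0.01 (Irx2), -0.30 (Irx3), 0.22 (Irx4), -0.12 (Irx5) and 0.21 log2 (Irx6), with SEs of 0.09 to 0.37. Tcf15, the relative of Scx known as paraxis, differed by -0.04 log2 (SE 0.11). Cnmd, chondromodulin and the relative of Tnmd, was near the bottom of the scale at 2.31 log2 in Delta9 and 2.26 log2 in WT. The tenascins Tnc, Tnn and Tnr differed by 0.18 (SE 0.57), -0.15 (SE 0.17) and -0.06 log2 (SE 0.11), and Vtn, which shares the somatomedin domain of Prg4, by -0.27 log2 (SE 0.14).

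**Figure D4:**
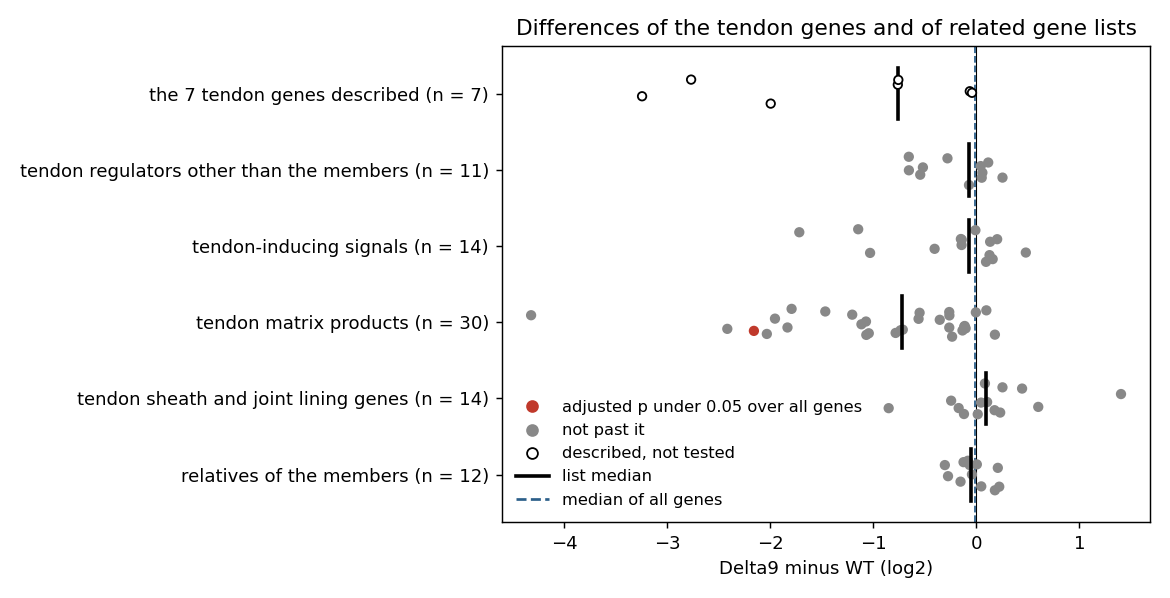
Delta9 minus WT difference (log2, x axis) of each measured gene in the 7 genes described and in 5 related lists (y axis), with list medians as black bars and the median of all genes as a dashed line. The red point (Fmod) has an adjusted p under 0.05 over all genes. Open points are the 7 genes, for which no test is given. The low median of the matrix list, -0.72, stands beside medians of -0.07 to 0.09 for the other 4 lists.

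The genes closest in pattern were found by the mean absolute gap per array, after centring each gene on its own mean over the 6 arrays. A shared order of samples, as named below, is largely built into this choice. For Mkx these were Thbs4 and Matn4, a matrilin, at gaps of 0.230 and 0.232 log2. Thbs4 read 8.65, 9.87 and 8.79 log2 in the Delta9 samples, against 11.25, 11.68 and 11.62 log2 in the WT samples, and like Mkx was highest of the Delta9 samples in replicate 2. For Prg4 they were Igfbp2, which binds insulin-like growth factors (0.257), and Scube2, a secreted Hedgehog release factor (0.390). For Tnmd they were A530047J11Rik (0.123) and the potassium channel gene Kcnma1 (0.213), which like Tnmd were highest of the Delta9 samples in replicate 3. For Scx they were Arid5b (0.0515) and Dennd4a (0.0789), and for Cilp the interleukin antagonist Il1rn (0.0575) and the nucleoside transporter Slc29a1 (0.0657). No gene was among the closest of more than 1 of these 5, which says little because the gap also depends on the size of the difference.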

How the data were processed

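Trizol was used to take total RNA from 6 samples, which an Affymetrix one-cycle kit labelled with biotin for 1 array each, per the labels' protocols. The deposited log2 values cover 45101 probe sets; the log base is inferred from their range, and how the authors summarised and normalized them is not given in the sources used here. Gene names came from the platform annotation: besides 64 control probe sets, 34945 probe sets had 1 symbol, 932 several and 9160 are unnamed here. By Entrez identifier 34741 of the 34945 matched RefSeq (GRCm38.p6), with 0 symbols changed.

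Delta9 was compared with WT in limma 3.58.1 (R 4.3.3; lmFit, eBayes with trend, no filter), with Benjamini-Hochberg adjustment over all 18193 genes, two-sided, at a threshold of 0.05; the fit was tested on simulated data. Differences are Delta9 minus WT, with moderated SEs. The 7 genes and all lists were chosen with earlier results of these data known. The 7 were part of the fit, so counts over all genes can include them, but no test of them is given. Named genes were the 7, Lmna, the relatives and neighbours, list genes past the threshold or else the 3 of lowest p, and the 2 closest in pattern for each of 5 genes; others (Cd163, Thbs4, Comp, Egr1, Egr2, Tgfb3, Tppp3) were picked with their values in view. Alternatives changed the normalization, probe set choice, dim-gene filter, variance model, blocks, covariate and samples; the fit within the 4 arrays of higher poly-A signal was added after seeing the data. Figures used matplotlib 3.10.9.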

Additional observations from a re-analysis of the deposited data

How the results depend on the processing

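The median difference of the 7 genes stayed within the spread between samples in all 13 alternatives run for it (-0.98 to -0.58 log2; -0.98 to -0.63 with 1 sample left out). Mkx, Tnmd and Prg4 kept their direction in 13 of 13, within their spread between samples. Moves beyond a gene's own spread between samples were Cilp at -0.28 and Cilp2 at 0.12 with the macrophage covariate, and Scx at -0.38 on its other probe set; Prg4 moved further in log2, to -2.62 with that covariate, but within its wider spread. Counts by limma moved more. Genes past the adjusted threshold numbered 11, and tendon pathway genes 1; with the poly-A split as a block they were 149 and 13, within the 4 arrays of higher poly-A signal 61 and 7, and with the macrophage covariate 2 and 0 (1705 genes and 26 pathway genes at an unadjusted p under 0.05). With 1 sample left out they ran from 1 to 81 and from 0 to 12. With the replicate number as a block both were 0 (1348 and 24 unadjusted). Deviations of same-numbered samples from their group means correlated at -0.40, 0.17 and -0.43. With 3 samples per group, these values cannot decide whether same-numbered samples share a source. The largest correlation between a Delta9 and a WT sample was 0.59, for Delta9 replicate 3 and WT replicate 1, the arrays of lower poly-A signal. The causes were not tested. Without detection calls, the levels of Cilp2, Tnxb and Scx, and of Mkx in Delta9, are limited by signal near the dim part of the scale.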
